A study of Mus musculus with 4 samples.

Results

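The genes Zfp993 and Zfp978 lie next to each other on mouse chromosome 4 within a cluster of zinc finger genes, and peaks of 4 ChIP-exo libraries around them were examined. The region was chosen by the number of peaks it holds in these same lists, so its peak counts are a description and carry no test. A peak was a member when its centre lay in the body of either gene or within 50 kb of it. Of the 29255 peaks of the series, 89 were members: 21 of endogenous Sox2, 38 of Halo-Sox2, 13 of Halo-Sox2M and 17 of Halo-Sox2D. All 4 libraries came from D3 mouse embryonic stem cells, with 1 library in each group. Endogenous Sox2 was isolated with an antibody to Sox2. Halo-Sox2, Sox2 fused to HaloTag (a tag protein that attaches to its ligand by a covalent bond), was isolated on HaloLink resin, as were both of its mutants. Halo-Sox2M carries the changes labelled M47G, F50 (no replacing residue is given) and M51G, and Halo-Sox2D keeps Sox2 residues 1 to 120. The labels name neither the promoter that drives the fusions nor the number of clones, and a library of input DNA or of resin alone was not analysed here.

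Sox2, a transcription factor with an HMG box for binding DNA, holds embryonic stem cells in the pluripotent state. ChIP-exo trims precipitated DNA with an exonuclease up to the crosslinked protein, so a peak marks a place of contact finely. Mammalian zinc finger genes with tandem C2H2 fingers sit in clusters that grew by duplication of neighbouring genes, and many of their proteins carry a KRAB domain through which they recruit the co-repressor Trim28 to silence transposable elements. Copies made by recent duplication keep near-identical sequence, which matters for any assay that aligns short reads.

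The complete lists were of unequal length: 13833 peaks in Halo-Sox2D, 7153 in endogenous Sox2, 6558 in Halo-Sox2 and 1711 in Halo-Sox2M. A list gives positions alone, so read depth and peak strength are unknown, and the length of a list cannot be told apart from depth or threshold. Peak lists measure no expression, and the cell type could be checked only by peaks at its marker genes: within 50 kb of Sox2, Pou5f1 and Nanog there were 4, 10 and 4 endogenous Sox2 peaks, 3, 3 and 3 Halo-Sox2 peaks, 3, 7 and 5 Halo-Sox2D peaks, and 1, 0 and 0 Halo-Sox2M peaks. Of 100-kb bins with 15 or more peaks in a library there were 11 in the genome, and 0 of them touched this region. Below that limit, the bin from 146900001 to 147000000 was still among the fullest of 27235 in 3 libraries. It held 11 endogenous Sox2 peaks (rank 6), 9 of Halo-Sox2 (rank 9) and 6 of Halo-Sox2M (rank 17), and 3 of Halo-Sox2D (rank 791).

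Positions are given in mm10, with genes from the RefSeq table of GRCm38.p6. Zfp993 (chromosome 4, 146512849 to 146991471) is annotated from a predicted transcript and spans 479 kb, and Zfp978 (147124882 to 147392027) spans 267 kb. With 50 kb added on each side, the windows ran from 146462849 to 147041471 and from 147074882 to 147442027, together 945.8 kb. The 33.41 kb between the windows held 0 peaks of any library. All 7 protein-coding genes that reach into the windows are zinc finger genes: Zfp992, Zfp981, Zfp993, Rex2, Zfp978, Zfp991 and Zfp988. Zfp981 and Rex2 overlap Zfp993, and Zfp991 and Zfp988 lie inside Zfp978, so a peak there belongs to both gene bodies. The other 28 annotated genes are 22 pseudogenes, 1 transcribed pseudogene and 5 long non-coding RNA genes. The table holds no exons, so exon and intron were not told apart.

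The starts of these genes show how alike the copies are. Sequences of 16 windows from 250 bases before to 50 bases after a start of transcription were available from RefSeq (GRCm38.p6) for 13 of the 17 zinc finger genes in the region and its flanking 1 Mb on each side. In 9 windows, each of a different gene, a run of at least 50 bases was identical to a run in the window of another gene. Rex2 and Zfp600 shared 285 of 300 bases in a single run. Zfp987 and Zfp534 shared 121, and Rex2 and Zfp979 shared 102. A run of 21 bases, in capitals here, was common to all 9 windows, and 9 of the 32817 promoter windows available for mouse genes held it on the strand of the gene, all of them from this cluster. The 80 bases around it are shown for each gene because peak positions are set against these copies further on.
Zfp980: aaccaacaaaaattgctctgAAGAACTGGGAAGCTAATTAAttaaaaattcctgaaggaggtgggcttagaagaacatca
Zfp987: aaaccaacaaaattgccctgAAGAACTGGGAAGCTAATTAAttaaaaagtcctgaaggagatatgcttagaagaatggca
Zfp600: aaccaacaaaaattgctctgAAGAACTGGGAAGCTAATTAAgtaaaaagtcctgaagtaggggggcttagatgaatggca
Rex2: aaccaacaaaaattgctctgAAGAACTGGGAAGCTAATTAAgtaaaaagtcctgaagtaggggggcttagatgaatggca
Zfp988: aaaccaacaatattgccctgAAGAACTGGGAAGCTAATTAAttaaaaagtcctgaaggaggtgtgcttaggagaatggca
Zfp982: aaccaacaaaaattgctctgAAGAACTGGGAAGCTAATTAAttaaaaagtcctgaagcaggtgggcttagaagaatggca
Zfp985: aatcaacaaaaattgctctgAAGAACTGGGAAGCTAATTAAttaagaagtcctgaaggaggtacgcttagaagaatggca
Zfp979: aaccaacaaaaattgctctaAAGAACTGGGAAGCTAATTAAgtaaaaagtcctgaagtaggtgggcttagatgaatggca
Zfp534: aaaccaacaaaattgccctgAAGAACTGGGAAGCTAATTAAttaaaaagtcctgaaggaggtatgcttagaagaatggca

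These stretches come from windows at chr4:145670447-145670746 (Zfp980, plus strand), chr4:146097062-146097361 (Zfp987, plus), chr4:146156577-146156876 (Zfp600, plus), chr4:147021600-147021899 (Rex2, plus), chr4:147305354-147305653 (Zfp988, plus), chr4:147492167-147492466 (Zfp982, plus), chr4:147553027-147553326 (Zfp985, plus), chr4:147642459-147642758 (Zfp979, minus) and chr4:147702582-147702881 (Zfp534, minus). The window of Zfp993 itself is unlike them, with a longest shared run of 9 bases, and it held 0 peaks. It is shown whole (chr4:146512599-146512898, plus strand) because Zfp993 is the member gene with a sequence in the table, with no base in capitals as no peak lies in it. For Zfp978 no window is shown.
Zfp993: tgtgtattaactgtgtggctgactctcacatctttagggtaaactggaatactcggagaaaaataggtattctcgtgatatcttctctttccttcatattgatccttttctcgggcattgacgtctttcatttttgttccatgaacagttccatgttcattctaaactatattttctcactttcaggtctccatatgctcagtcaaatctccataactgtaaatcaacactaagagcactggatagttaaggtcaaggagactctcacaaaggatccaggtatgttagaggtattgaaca

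The Zfp993 window held 13 peaks of endogenous Sox2, 19 of Halo-Sox2, 8 of Halo-Sox2M and 7 of Halo-Sox2D. The Zfp978 window held 8, 19, 5 and 10. A peak within 50 kb was found for 27.4% of all 21887 protein-coding genes in the endogenous Sox2 list, 32.3% in Halo-Sox2, 6.37% in Halo-Sox2M and 57.7% in Halo-Sox2D, and the median gene had 0, 0, 0 and 1 peaks. By the number of peaks Zfp993 ranked 9 in endogenous Sox2, 8 in Halo-Sox2, 33 in Halo-Sox2M and 374 in Halo-Sox2D. Zfp978 ranked 71, 8, 50 and 79 in the same order. A long gene can collect more peaks by its length, so length was taken into account as a description: among the 693 genes between 0.5 and 2 times as long as Zfp993, it ranked 4, 1, 1 and 32, and among the 1477 genes of like length to Zfp978 that gene ranked 18, 1, 2 and 25. By peaks per 100 kb of the same window the ranks among all 21887 genes were much lower. Zfp993 ranked 929, 223, 202 and 7179, and Zfp978 ranked 948, 64, 203 and 3019. The ranks come from lists of different length and from the values that chose the region, so they are not compared between libraries.

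Set against the length of each list, the region took 0.294% of the endogenous Sox2 peaks (95% exact binomial interval 0.182 to 0.448%), 0.579% of Halo-Sox2 (0.41 to 0.794%), 0.76% of Halo-Sox2M (0.405 to 1.3%) and 0.123% of Halo-Sox2D (0.0716 to 0.197%). Such an interval reflects counting error alone, and peaks close to each other are not independent counts. Of the peaks on chromosome 4, the region held 15.5% in Halo-Sox2M, 9.48% in Halo-Sox2, 4.75% in endogenous Sox2 and 1.83% in Halo-Sox2D.

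**Figure D1:**
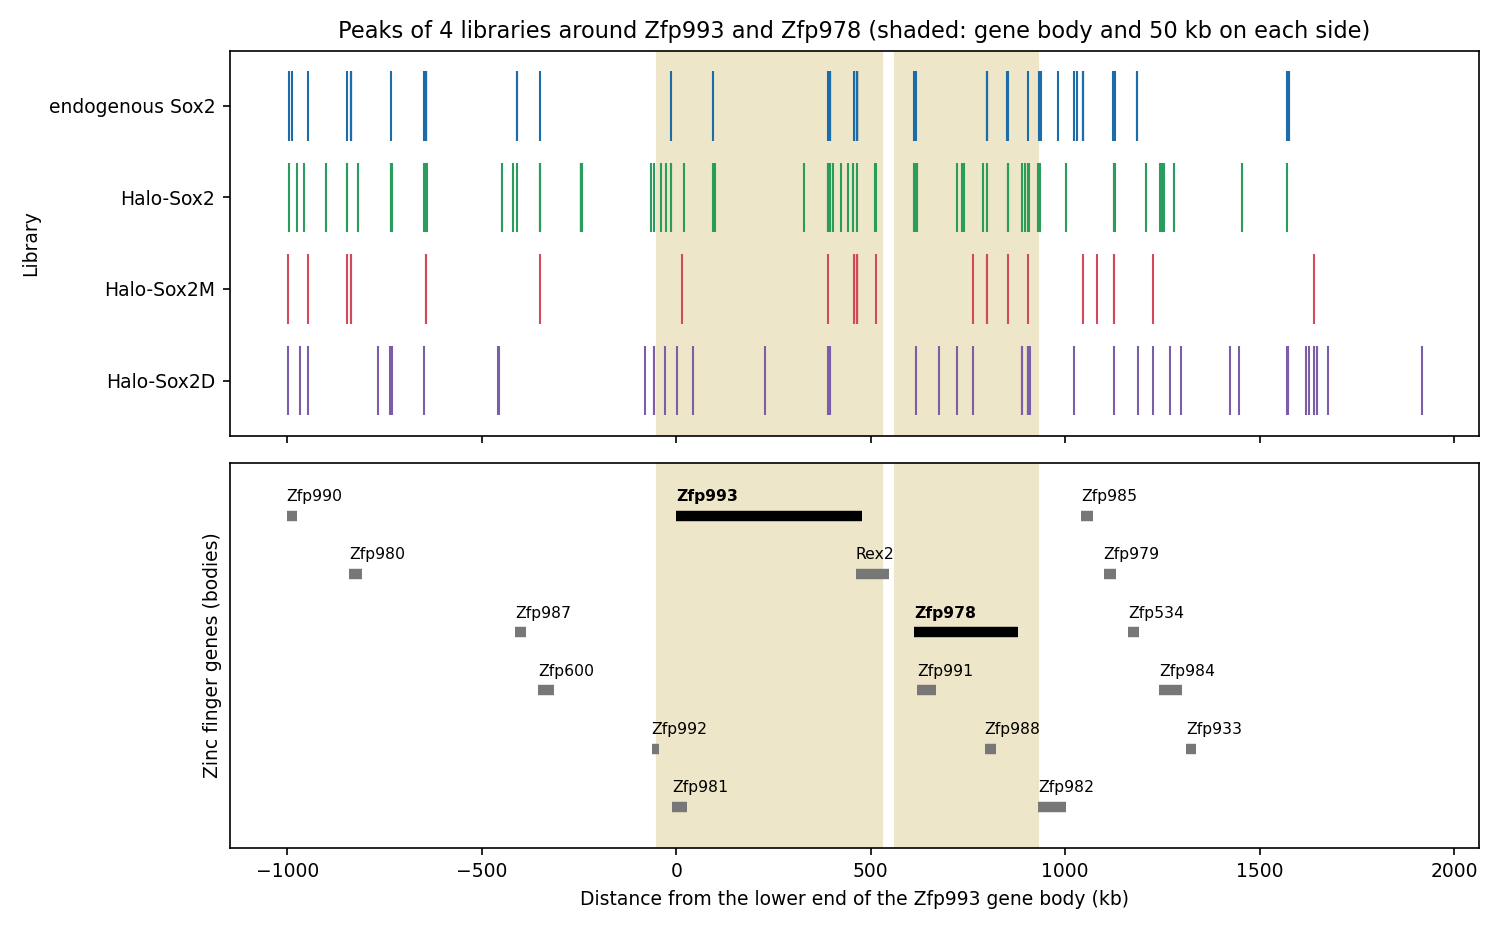
Peaks of each library (vertical lines, upper panel) and bodies of the 17 zinc finger genes (bars, lower panel), by distance in kb from the lower end of Zfp993; shading marks both 50-kb windows. Peaks lie on both sides of the windows, with empty stretches of up to 377 kb (Halo-Sox2M) inside them, and above the last zinc finger gene there are 3, 2 and 1 peaks of endogenous Sox2, Halo-Sox2 and Halo-Sox2M and 12 of Halo-Sox2D.

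The zinc finger genes do not end at the windows, and neither did the peaks. In the flanking 1 Mb on both sides there were 33 peaks of endogenous Sox2, 40 of Halo-Sox2, 14 of Halo-Sox2M and 30 of Halo-Sox2D. Per 100 kb this is 1.65, 2.0, 0.7 and 1.5 peaks in the flanks, against 2.22, 4.02, 1.37 and 1.8 within 50 kb of Zfp993 or Zfp978. The ratios were 1.35 (exact binomial interval 0.74 to 2.4), 2.01 (1.25 to 3.21), 1.96 (0.85 to 4.5) and 1.2 (0.62 to 2.24). As the region was chosen on these counts, the intervals give their counting error and no test.

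The flanks were not alike within themselves. Zinc finger genes were found along the lower flank, with wide gaps between them, and along the upper flank as far as the upper end of Zfp933 at 147849126. Above it lie 592.9 kb with other genes, such as Mfn2 (a mitochondrial fusion GTPase) and Nppa and Nppb (natriuretic peptides). That stretch held 3 peaks of endogenous Sox2, 2 of Halo-Sox2, 1 of Halo-Sox2M and 12 of Halo-Sox2D. Over all 2386 kb from the lower flank to Zfp933 there were 51, 76, 26 and 35 peaks. Peaks per 100 kb were 4.22 times as dense on the zinc finger side for endogenous Sox2 (1.37 to 21.2), 9.44 times for Halo-Sox2 (2.53 to 79.4) and 6.46 times for Halo-Sox2M (1.06 to 265). For Halo-Sox2D the ratio was 0.725 (0.367 to 1.53). The boundary at Zfp933 was set after the positions were seen, so these ratios are a description too.

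**Figure D2:**
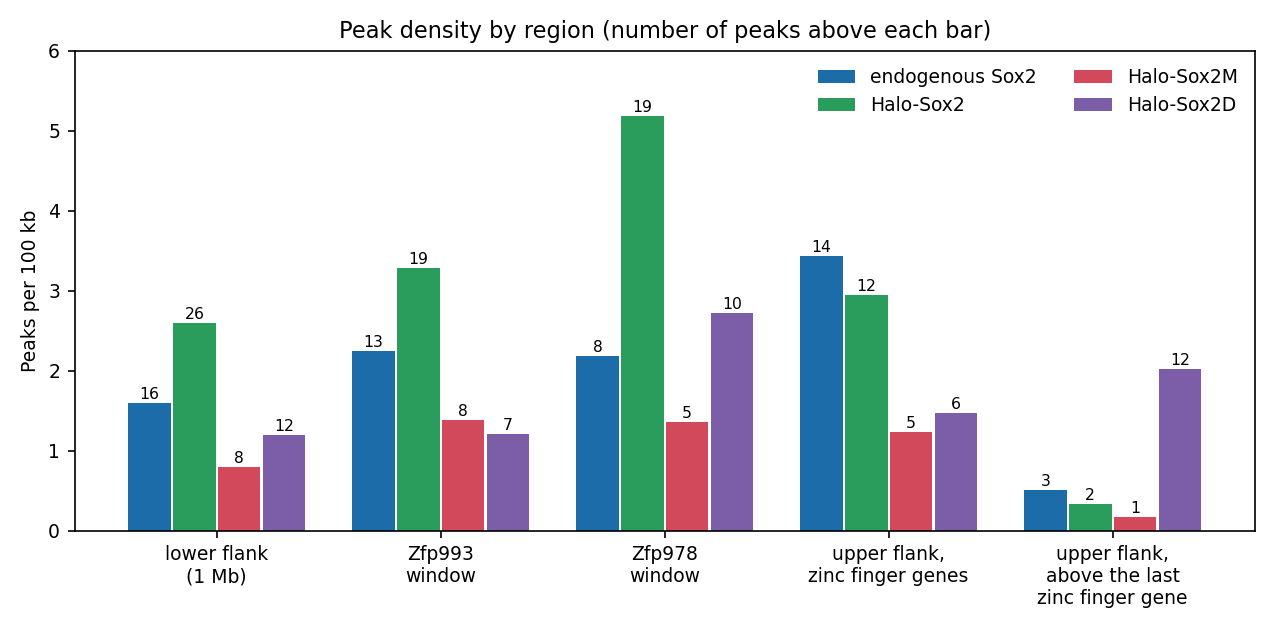
Peaks per 100 kb (bars) and numbers of peaks (above the bars) in the lower flank, both gene windows and the parts of the upper flank below and above the upper end of the last zinc finger gene. Halo-Sox2 is highest in the Zfp978 window (5.18), and above the last zinc finger gene endogenous Sox2, Halo-Sox2 and Halo-Sox2M fall to 0.506, 0.337 and 0.169 while Halo-Sox2D is at 2.02.

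Of all 4 libraries, Halo-Sox2M had the largest part of its list here: the 2386 kb took 1.52% of all its peaks and 31.0% of those on chromosome 4. Halo-Sox2 had 1.16% of its list there, endogenous Sox2 0.713% and Halo-Sox2D 0.253%. Among 2732 bins of 1 Mb, that from 147000001 to 148000000 held 22 endogenous Sox2 peaks (rank 5, median bin 1), 34 Halo-Sox2 peaks (rank 4, median 1), 11 Halo-Sox2M peaks (rank 13, median 0) and 18 Halo-Sox2D peaks (rank 120, median 2). The bin from 146000001 to 147000000, with all of Zfp993, held 16, 30, 8 and 12 in the same order (ranks 16, 6, 19 and 313). For Halo-Sox2D the bin from 148000001 to 149000000, above the zinc finger genes, ranked higher, with 26 peaks (rank 41).

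Gene by gene, the peaks were spread over most of the cluster. A peak lay inside the body of 12 of the 17 zinc finger genes in the endogenous Sox2 list, 13 in that of Halo-Sox2, 10 in Halo-Sox2M and 8 in Halo-Sox2D. For the other 381 genes named Zfp or Znf in the genome the counts were 22 (5.77%), 35 (9.19%), 9 (2.36%) and 83 (21.8%), beside the 7.41, 9.05, 1.31 and 20.4% of all protein-coding genes. Within 50 kb, 32.8, 39.1, 9.45 and 67.7% of those 381 genes had a peak, each somewhat above the share of all protein-coding genes given above. Zfp993, Zfp978, Zfp990 and Zfp979 had peaks of all 4 libraries in their bodies. Zfp991 and Zfp933 had 0 peaks of any library there. Of the flank genes, Zfp982 led for endogenous Sox2 and Halo-Sox2 with 9 peaks each within 50 kb, of which 1 and 5 were already members around Zfp978. It was followed by Zfp534 (6) and Zfp985 (5) in endogenous Sox2 and by Zfp987 (6) and Gm13212 (5) in Halo-Sox2. Windows of neighbouring genes overlap, so a peak can count for more than 1 gene. The bodies alone held 2 endogenous Sox2 peaks in Zfp534 and 3 in Zfp985, and 1 Halo-Sox2 peak each in Zfp987 and Gm13212. In Halo-Sox2M the leading flank genes were Zfp534, Zfp979 and Zfp980 with 3 each, of which 0, 2 and 2 lay in the gene body. In Halo-Sox2D the leading flank genes lay outside the cluster. Mad2l2, a mitotic checkpoint and DNA repair protein, had 9 peaks, 2 of them in its body. The neighbouring Draxin, an axon guidance factor, had 8, all of them among those 9, with 0 in its body. Zfp982 came next with 7, of which 6 were members around Zfp978.

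Inside Zfp993 there were 12 peaks of endogenous Sox2, 13 of Halo-Sox2, 7 of Halo-Sox2M and 6 of Halo-Sox2D, and inside Zfp978 there were 7, 13, 4 and 4. The outermost members were a Halo-Sox2 peak at 146473416 to 146473435, 39.4 kb below Zfp993, and a Halo-Sox2D peak at 147421512 to 147421522, 29.5 kb above Zfp978. The nearest peaks outside the rule were a Halo-Sox2D peak 57.0 kb below Zfp993 and a Halo-Sox2 peak 50.3 kb above Zfp978.

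Most places held a single peak of a library, and a few held a tight row. When centres within 500 bp were joined in each library, 9 of 12 places of endogenous Sox2, 22 of 29 of Halo-Sox2, 7 of 9 of Halo-Sox2M and 11 of 14 of Halo-Sox2D had 1 peak. The median distance between neighbouring centres of a library was 3.5 kb in endogenous Sox2, 8.06 kb in Halo-Sox2, 30.8 kb in Halo-Sox2D and 34.9 kb in Halo-Sox2M. In that order the largest empty stretches were 296, 230, 185 and 377 kb, all within the Zfp993 window. Of 19 such distances of endogenous Sox2, 8 were at most 100 bp, compared with 7 of 36 for Halo-Sox2, 4 of 11 for Halo-Sox2M and 1 of 15 for Halo-Sox2D.

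When centres of all libraries within 500 bp were joined, the 89 peaks formed 43 places. Of these, 13 were held by 2 or more libraries, and they contained 58 of the 89 peaks (65.2%). The share of places held by 2 or more libraries was 30.2% here, 36.7% in the lower flank, 17.9% in the upper flank and 12.9% over the whole series. All 4 libraries met at 2 of the 43 places (4.65%), against 44 of 19527 in the series (0.225%). They met at 0 of 30 places in the lower flank and 1 of 39 in the upper flank. Over the 2386 kb up to Zfp933 it was 3 of 96 (3.12%). Places in a peak-rich stretch can also meet by their density, whose part was not tested. Halo-Sox2D held 14 of the 43 places here and 11913 of the 19527 in the series. The pooled shares thus compare unlike mixes of libraries. Of the endogenous Sox2 places, 10 of 12 were also held by another library (83.3%, compared with 41.3% of its places in the series). For Halo-Sox2M it was 7 of 9 (77.8% and 27.0%), for Halo-Sox2D 6 of 14 (42.9% and 14.9%) and for Halo-Sox2 11 of 29 (37.9% and 32.3%).

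The richest place lay in the stretch shared by Zfp993 and Rex2, at 146976777 to 146976977, with 11 peaks in 201 bp. Of these, 6 were of endogenous Sox2 (146976812 to 146976820, 146976845 to 146976855, 146976877 to 146976890, 146976892 to 146976909, 146976918 to 146976927 and 146976958 to 146976977). Halo-Sox2M had 4 (146976777 to 146976793, 146976797 to 146976815, 146976846 to 146976861 and 146976875 to 146976891) and Halo-Sox2 had 1 (146976812 to 146976815). Of the 4 Halo-Sox2M peaks, 3 overlapped an endogenous peak, each a different one, and Halo-Sox2D had 0 peaks there. The distances between neighbouring endogenous centres were 34, 33.5, 17, 22 and 45 bp, and those between Halo-Sox2M centres were 21, 47.5 and 29.5 bp.

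Endogenous Sox2 and Halo-Sox2M also met within Zfp988, which lies inside Zfp978. At 147311620 to 147311735 there were 3 endogenous Sox2 peaks and 2 Halo-Sox2M peaks and 0 of the other libraries, and the Halo-Sox2M peak at 147311692 to 147311710 overlapped the endogenous one at 147311697 to 147311709. A further pair lay in Zfp993 at 146968485 to 146968518, with 1 peak of each. In all, endogenous Sox2 and Halo-Sox2M met at 6 places, and Halo-Sox2 had a peak at 4 of them.

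Both places of all 4 libraries had few peaks of each. In Zfp993, at 146903259 to 146903598, there were 2 Halo-Sox2 peaks and 1 each of endogenous Sox2, Halo-Sox2M and Halo-Sox2D. The Halo-Sox2, Halo-Sox2D and Halo-Sox2M peaks at 146903529 to 146903541, 146903535 to 146903553 and 146903549 to 146903558 overlapped in a chain, and the endogenous peak at 146903593 to 146903598 lay just above them. Above Zfp978, 25.5 kb from its upper end and 25.5 kb below Zfp982, the place at 147417473 to 147417663 held 1 peaks of endogenous Sox2, 2 of Halo-Sox2, 1 of Halo-Sox2M and 2 of Halo-Sox2D. There the Halo-Sox2 peak at 147417514 to 147417518 lay inside the endogenous one at 147417503 to 147417521.

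Endogenous Sox2, Halo-Sox2 and Halo-Sox2D met without Halo-Sox2M at 2 places. The first, in Zfp993 at 146908209 to 146908374, had 3, 2 and 2 peaks. The second lay in Zfp978 at 147128417 to 147128494, 3.57 kb above the lower end of the gene, with 1, 3 and 1 peaks. At the second, a peak of endogenous Sox2 and a peak of Halo-Sox2 had the same coordinates, 147128478 to 147128494, and the Halo-Sox2D peak at 147128475 to 147128486 overlapped both. Higher in Zfp978, at 147365705 to 147365807, 1 endogenous Sox2, 3 Halo-Sox2 and 1 Halo-Sox2M peaks met.

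**Figure D3:**
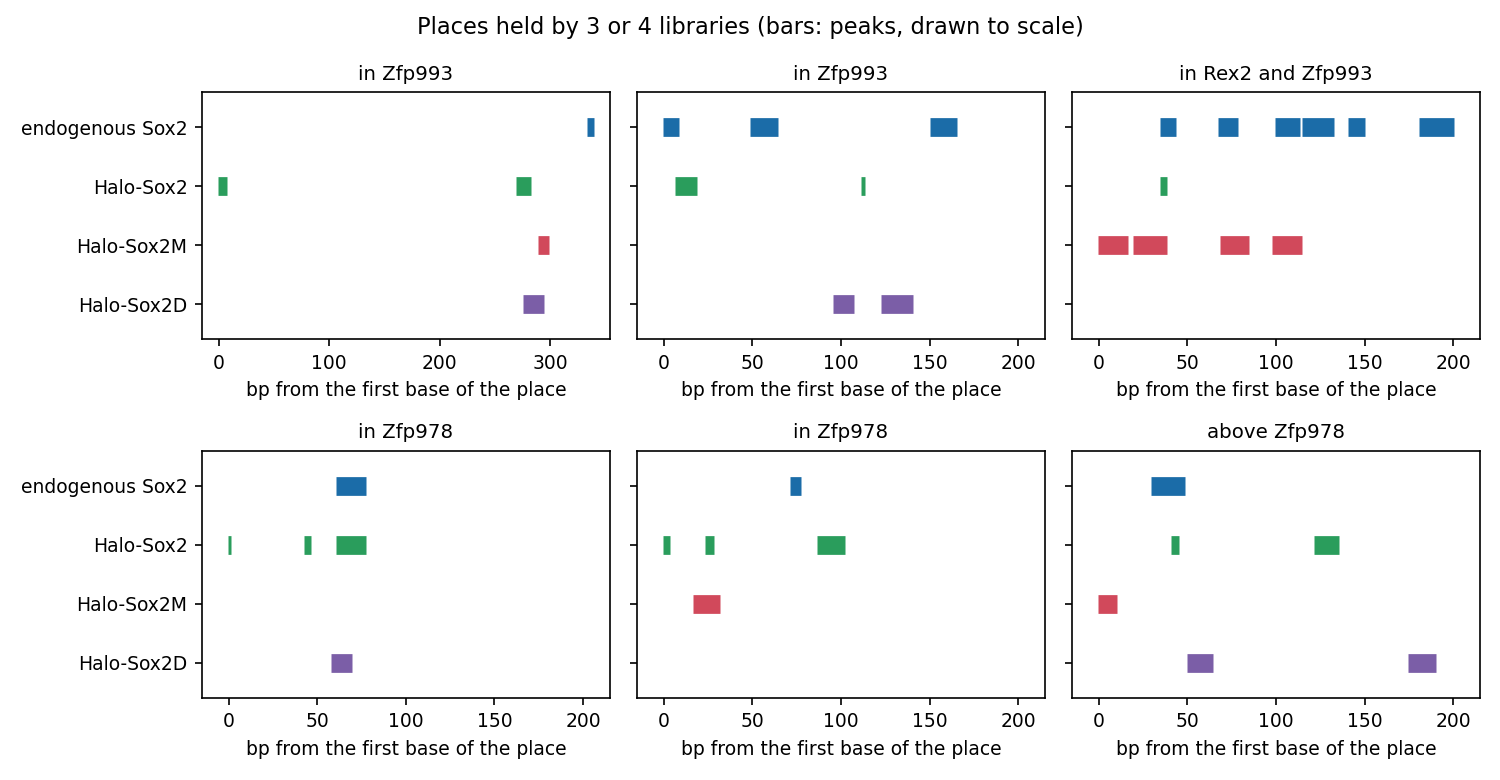
The 6 places that 3 or 4 libraries held within 50 kb of Zfp993 or Zfp978, with each peak as a bar drawn to scale in bp from the first base of the place (the first panel spans a longer axis). The row of 6 endogenous Sox2 and 4 Halo-Sox2M peaks in the overlap of Rex2 and Zfp993 is the densest, and Halo-Sox2D has 0 peaks there.

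The other places of more than 1 library held 2 libraries each. Endogenous Sox2 and Halo-Sox2 met at 146498270 to 146498286, below Zfp981, and at 146607384 to 146607414 in Zfp993. Halo-Sox2 and Halo-Sox2D met at 147235193 to 147235459 in Zfp978 and at 147401607 to 147402044 above it. Halo-Sox2 and Halo-Sox2M met at 147026240 to 147026262 in Rex2. The 30 places of a single library were 18 of Halo-Sox2 (19 peaks), 8 of Halo-Sox2D, 2 of endogenous Sox2 and 2 of Halo-Sox2M. Both endogenous ones lay in Zfp978, at 147124981 to 147124989 and 147362209 to 147362223. Of the Halo-Sox2M ones, that at 146526460 to 146526479 lay in Zfp993 and Zfp981 and that at 147276742 to 147276755 lay in Zfp978 and the pseudogene Gm13135.

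By partner, 15 of the 21 endogenous Sox2 peaks had a Halo-Sox2 centre within 500 bp (71.4%), 13 a Halo-Sox2M centre (61.9%) and 6 a Halo-Sox2D centre (28.6%). Each peak of a tight row counts separately in these shares. The place at 146976777 to 146976977 alone gave 6 of the 13, and by place endogenous Sox2 met Halo-Sox2M at 6 of its 12 places. In the complete endogenous list these shares were 35.2, 11 and 38.9%, so the share with Halo-Sox2M was higher here than in the complete list and that with Halo-Sox2D lower. The flanks went the same way, so this was not particular to the region. Of their 33 endogenous Sox2 peaks, 15 had a Halo-Sox2M centre and 6 a Halo-Sox2D centre. Of the 13 Halo-Sox2M peaks, 10 had an endogenous Sox2 centre within 500 bp (76.9%, 41.7% in its list), 8 a Halo-Sox2 centre (61.5%, 49.2%) and 2 a Halo-Sox2D centre (15.4%, 43.7%). Of the 38 Halo-Sox2 peaks, 16 had an endogenous Sox2 centre (42.1%, 31.0% in its list), 9 a Halo-Sox2M centre (23.7%, 12.5%) and 11 a Halo-Sox2D centre (28.9%, 29.0%). Of the 17 Halo-Sox2D peaks, 6 had an endogenous Sox2 centre (35.3%, 15.2% in its list), 9 a Halo-Sox2 centre (52.9%, 13%) and 3 a Halo-Sox2M centre (17.6%, 4.71%). Seen from the Halo-Sox2D list, the shares here were thus higher with each partner than in the complete list. Of the 30 Halo-Sox2D peaks in the flanks, 5, 5 and 4 had a centre of these partners. With an overlap of at least 1 bp the 15, 13 and 6 endogenous Sox2 peaks became 5, 4 and 1.

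By 2-kb classes of distance from the starts of the genes, places were most frequent 4 to 6 kb downstream. In the region and its flanks, 10 places lay 4 to 6 kb downstream of the first available start of a zinc finger gene. They lay at 9 of the 13 genes with an available start (69.2%). For Rex2, Zfp981, Zfp984 and Zfp933 this start lies inside the annotated gene body. That of Rex2 is at 147021850, while the lower end of its body is at 146973610. The row of 11 peaks at 146976777 to 146976977 in Rex2 lay more than 10 kb from every start used. In the other 2-kb classes up to 10 kb on either side, 0 to 3 places were found. Of the places at 4 to 6 kb, those at Rex2 and Zfp988 lay within the 50-kb windows, and the others lay in the flanks. Zfp993 had 0 such places, and Zfp978 has no available start. Of 17492 protein-coding genes with a start in the table, 2.56% had a place 4 to 6 kb downstream, and of 319 other zinc finger genes 2.82%. Within the class, 5 of the 13 genes had a place at 4 to 5 kb and 5 at 5 to 6 kb. The class was chosen after the positions were seen, and the region was chosen on its peaks.

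The starts with such places were mainly those with a long shared run. Of the 9 windows with a shared run of at least 50 bases, 8 had a place 4 to 6 kb downstream, the exception being the window of Zfp982 printed above. Of the 7 windows without such a run, 1 did, another start of Zfp982 (5.7 kb, Halo-Sox2 alone). The limit of 50 bases was set after the positions were seen, and the contrast depends on it. The windows of Zfp981 and Zfp984, with a shared run of 42 bases, fall just below the limit and had 0 places in the class. The distances were 4.4 kb at Rex2 (from its start inside the gene body), 4.44 kb at Zfp979 and 4.48 kb at Zfp600. They were 4.95 kb at Zfp980 and 4.96 kb at Zfp985, 5.0 kb at Zfp988, and 5.28 kb at Zfp534 and 5.48 kb at Zfp987, with a further place 5.55 kb from Zfp979. The place of 3 endogenous Sox2 and 2 Halo-Sox2M peaks in Zfp988 lay just outside the class, at 6.07 kb. Endogenous Sox2 held the places at Zfp980, Zfp987, Zfp600, Zfp985, Zfp979 and Zfp534, and Halo-Sox2M held those at Zfp980, Zfp600, Rex2, Zfp985 and Zfp979. Halo-Sox2 was at 5 genes of this class: Zfp600, Rex2, Zfp988, Zfp982 and Zfp979. Halo-Sox2D had a peak in this class at Zfp979 alone, where all 4 libraries met (147638026 to 147638112, 7 peaks). How reads that align equally well to several copies were treated is not given in the sources used here, and their part in these positions was not tested.

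**Figure D4:**
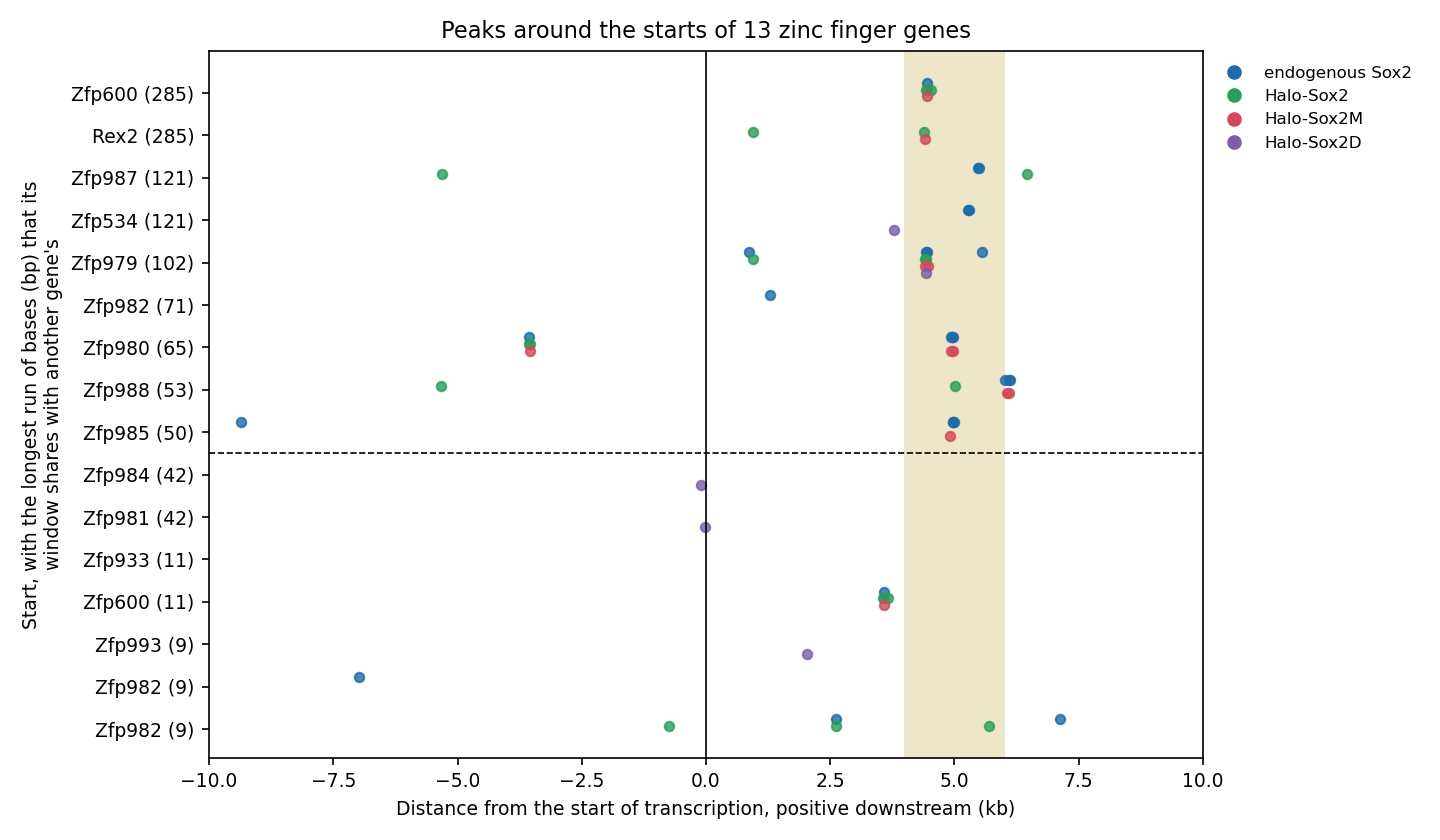
Peaks (points, coloured by library) within 10 kb of 16 starts of 13 zinc finger genes, by distance downstream in kb; rows are ordered by the longest run of identical bases, in parentheses, that the start's window shares with the window of another gene, and a dashed line separates runs of 50 or more from shorter ones. Points gather in the shaded class of 4 to 6 kb for 8 of the 9 starts above the line.

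Few peaks lay at a start itself. Of all 32817 start windows, 0.472% held a peak of endogenous Sox2, 0.731% of Halo-Sox2, 0.238% of Halo-Sox2M and 4.46% of Halo-Sox2D, the longest list. Of the 16 windows, 2 held a peak, and both peaks were of Halo-Sox2D: 146514891 to 146514895 in the window of Zfp981 (chr4:146514670-146514969, plus strand), whose gene overlaps Zfp993, and 147809890 to 147809892 in that of Zfp984 (chr4:147809739-147810038, minus strand) in the upper flank. The windows of these genes share a run of 42 bases with each other, at bases 125 to 166 of Zfp981 and 134 to 175 of Zfp984. Both are shown with the bases under the Halo-Sox2D peak in capitals, bases 222 to 226 in Zfp981 and 147 to 149 in Zfp984, counted from 1 at the 5′ end. The Zfp984 peak thus lies within the shared run and the Zfp981 peak does not.
Zfp981: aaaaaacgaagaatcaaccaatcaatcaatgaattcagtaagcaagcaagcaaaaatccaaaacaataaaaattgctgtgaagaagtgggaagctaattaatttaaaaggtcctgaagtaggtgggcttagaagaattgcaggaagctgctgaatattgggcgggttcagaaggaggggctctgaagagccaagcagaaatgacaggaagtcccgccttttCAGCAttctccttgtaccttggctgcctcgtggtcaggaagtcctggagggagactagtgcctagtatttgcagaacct
Zfp984: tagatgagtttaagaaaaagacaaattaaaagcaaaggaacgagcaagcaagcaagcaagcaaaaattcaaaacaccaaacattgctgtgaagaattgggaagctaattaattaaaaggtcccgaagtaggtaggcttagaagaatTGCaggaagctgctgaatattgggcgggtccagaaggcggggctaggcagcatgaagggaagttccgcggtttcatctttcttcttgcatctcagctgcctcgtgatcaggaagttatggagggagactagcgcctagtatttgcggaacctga

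Short Sox-type motifs were searched in these windows on both strands. CTTTGT was found in 8 of the 16 and CATTGT in 1, against 18.7 and 12.6% of all 32817 promoter windows. Several of the 16 are near-copies of each other, so their matches are not independent. In the windows of Zfp981 and Zfp984, which hold a peak, there were 0 matches of either. The composite Sox and Oct motif was in 0 of the 16 windows and in 0.0609% of all. In the window of Zfp993, CTTTGT was found once, on the minus strand at bases 267 to 272. The letters of CATTGT are the Sox side of the composite motif, so that their matches overlap.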

How the data were processed

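ChIP-exo peak lists of 4 libraries were used, with 1 library per group taken from the labels, so no test between groups was run and no p-value was computed. Per the submitters' processing notes, Bowtie2 and mm10 were used; for the peak caller, its threshold and the treatment of reads that align to several places, the method is "not given in the sources used here". What the authors deposited for each library was start and end coordinates without a score, which were read as BED and written counting from 1. Read depth is unknown. The members, the alternatives and the lists were chosen with earlier results of these data known.

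Gene positions and names were taken from RefSeq (GRCm38.p6), which shares its main chromosomes with mm10. Windows of 50 kb, flanks of 1 Mb and joining of centres within 500 bp were computed with Python 3.11.15, numpy 2.4.6, pandas 2.3.3 and scipy 1.17.1, and figures with matplotlib 3.10.9. Intervals are 95% exact binomial (Clopper-Pearson) and reflect counting error alone. Start windows came from RefSeq, and in 113 of 113 overlapping pairs of opposite strand on chromosome 4 the sequences were reverse complements. Shared runs are the longest identical stretches on the strand of each gene. Distances to starts, shared runs, the boundary at Zfp933 and the class of 4 to 6 kb were added after the positions were seen.

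Named genes were Zfp978, Zfp993, every protein-coding gene named Zfp, Znf or Rex2 in the region and its flanks, other genes of the region within 1 kb of a peak, and the 3 flank genes with most peaks per library. Mfn2, Nppa and Nppb were named by position. The counting code was tested on simulated lists with planted peaks.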

Additional observations from a re-analysis of the deposited data

How the results depend on the processing

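The peak counts stayed within 1.5 times under windows of 20 and 100 kb, counting centres within 50 bp once, and any overlap with the window; in the gene bodies alone, an alternative added after the data were seen, the Halo-Sox2D count fell from 17 to 10 and the others stayed within that range. Shares of the list stayed within their intervals under both other denominators. Density against flanks of 2 Mb was 3.93 in Halo-Sox2M (1.96 with 1 Mb), 3.28 in Halo-Sox2 (2.01), 2.34 in endogenous Sox2 (1.35) and 1.14 in Halo-Sox2D (1.2). Against the upper flank above the last zinc finger gene, also added later, it was 4.39 for endogenous Sox2, 11.9 for Halo-Sox2 and 8.15 for Halo-Sox2M, while Halo-Sox2D was at 0.888. The ratio of Halo-Sox2D was below 1 also with the upper flank alone (0.999) and with places in place of peaks (0.987), so that its direction depended on the setting. The number of places was 49 when joined within 50 bp and 37 within 2 kb, of which 12 and 16 were held by 2 or more libraries. Meeting of libraries depended most on the criterion. For each library with its 3 partners (endogenous Sox2 first, then Halo-Sox2, then Halo-Sox2M, then Halo-Sox2D), an overlap of at least 1 bp left 5, 4 and 1 for endogenous Sox2, 5, 3 and 2 for Halo-Sox2, 4, 3 and 1 for Halo-Sox2M and 1, 2 and 1 for Halo-Sox2D. A reciprocal overlap of 50% left 2, 3 and 1 for endogenous Sox2, 2, 1 and 1 for Halo-Sox2, 3, 1 and 0 for Halo-Sox2M and 1, 1 and 0 for Halo-Sox2D. Centres within 50 bp left 10, 11 and 4 for endogenous Sox2, 11, 6 and 6 for Halo-Sox2, 9, 7 and 1 for Halo-Sox2M and 4, 6 and 1 for Halo-Sox2D. With coordinates alone, a stricter threshold on peaks could not be tried. No paired analysis was possible because each group has 1 library and the labels give no replicate numbers.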
